A study of Mus musculus with 12 samples.

Results

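Cluster 2 of the 12W spleen library is a group of PD-1+CD44+CD8+ T cells that carried the transcripts of effector T cells. Its members were all cell barcodes with cluster number 2 in the deposited cluster assignment of that library, and no expression threshold was used here to choose them. It held 1118 of the 6894 cells of 12W spleen (16.2%, exact binomial interval 15.4 to 17.1%), and the 3 libraries of the series held 20510 cells. All cells came from NZB/W F1 mice, hybrids of the NZB and NZW strains in which lupus with kidney inflammation arises as they age. The groups were spleen at 12 weeks (12W spleen, before disease), spleen at 28 weeks (28W spleen, advanced disease) and kidney at 28 weeks (28W kidney), all sorted as PD-1+CD44+CD8+ T cells. Each group has 4 labelled samples whose cells are pooled in 1 table with no map from cells to samples. The sample titles end in L001 to L004, so they may be lanes of 1 library and not separate samples, and the number of mice is not stated.

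Effector CD8+ T cells arise when naive T cells meet antigen. They kill by releasing perforin and granzymes from granules and by Fas ligand, secrete chemokines and interferon gamma, and move between blood and tissue with the help of integrins and chemokine receptors. Cells that keep the interleukin 7 receptor can persist as memory cells, and the transcription factors T-bet (*Tbx21*) and Eomes shape both fates.

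Cluster 2 held 3875727 unique molecular identifiers (UMIs, each standing for 1 captured transcript), or 3467 per cell. The median cell of the library had 3853. Levels are given as UMIs per 1000000 UMIs of the cluster (CPM), with exact 95% limits that cover counting error alone and not the spread between mice. With 1 library per group no difference has a replicate check, and no test was made. A log2 ratio was taken after adding 1 CPM to both sides, genes with at least 5 CPM over the library were compared, and a gene was called higher or lower at a 2-fold difference of these values. Gene lists were counted over all their measured members, also those under 5 CPM. Because the tables hold cluster means, more cells with a transcript and more transcript per cell cannot be told apart. The clusters were made from these same genes, so the contrast with the other 5776 cells describes the cluster and tests nothing.

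The cluster had been described by 7 marker genes, chosen with earlier results of these data known. It carried all 7, which is partly fixed by that choice and is given as a description. *Ccl5*, a chemokine that draws T cells and macrophages (chromosome 11, 83525778 to 83530518, GRCm38), stood at 8055 CPM (7966 to 8145). In the other 9 clusters *Ccl5* ran from 83.0 in cluster 7 through a median of 426 to 1848 in cluster 3. *Gzmk*, the gene of granzyme K (chromosome 13, 113171608 to 113225908), was at 160 CPM (147 to 172), while the other clusters ran from 1.80 through a median of 7.32 to 23.9. Neither gene's interval in cluster 2 overlapped that of any other cluster.

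*S100a6* and *S100a4*, neighbouring genes of calcium-binding proteins on chromosome 3, were at 730 and 161 CPM. The next highest cluster for *S100a6* was cluster 3 at 122, and for *S100a4* cluster 10 at 33.2. *Itgb1*, which encodes the integrin chain CD29 (chromosome 8, 128685654 to 128733200), was at 502 CPM (480 to 525) against a median of 78.3 over the other clusters. *Cxcr3*, a receptor for interferon-induced chemokines, was at 302 CPM (285 to 320) against a median of 50.8, and *Klrk1*, the activating receptor NKG2D, at 64.8 (57.0 to 73.3) against 3.30.

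Cluster 8 shared part of this pattern. It was a low-RNA cluster of 307 cells with 928 UMIs per cell and 8.98% mitochondrial UMIs, against 1.11% in cluster 2. It exceeded cluster 2 in *Itgb1* (664 CPM, 572 to 765), and its *Cxcr3* (253, 198 to 318) and *Klrk1* (38.6, 19.3 to 69.1) were at intervals that met those of cluster 2. It held little *Ccl5* (312 CPM), *Gzmk* (21.1) and *S100a4* (7.02). Whether RNA quality plays a part in the shared genes was not tested.

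**Figure D1:**
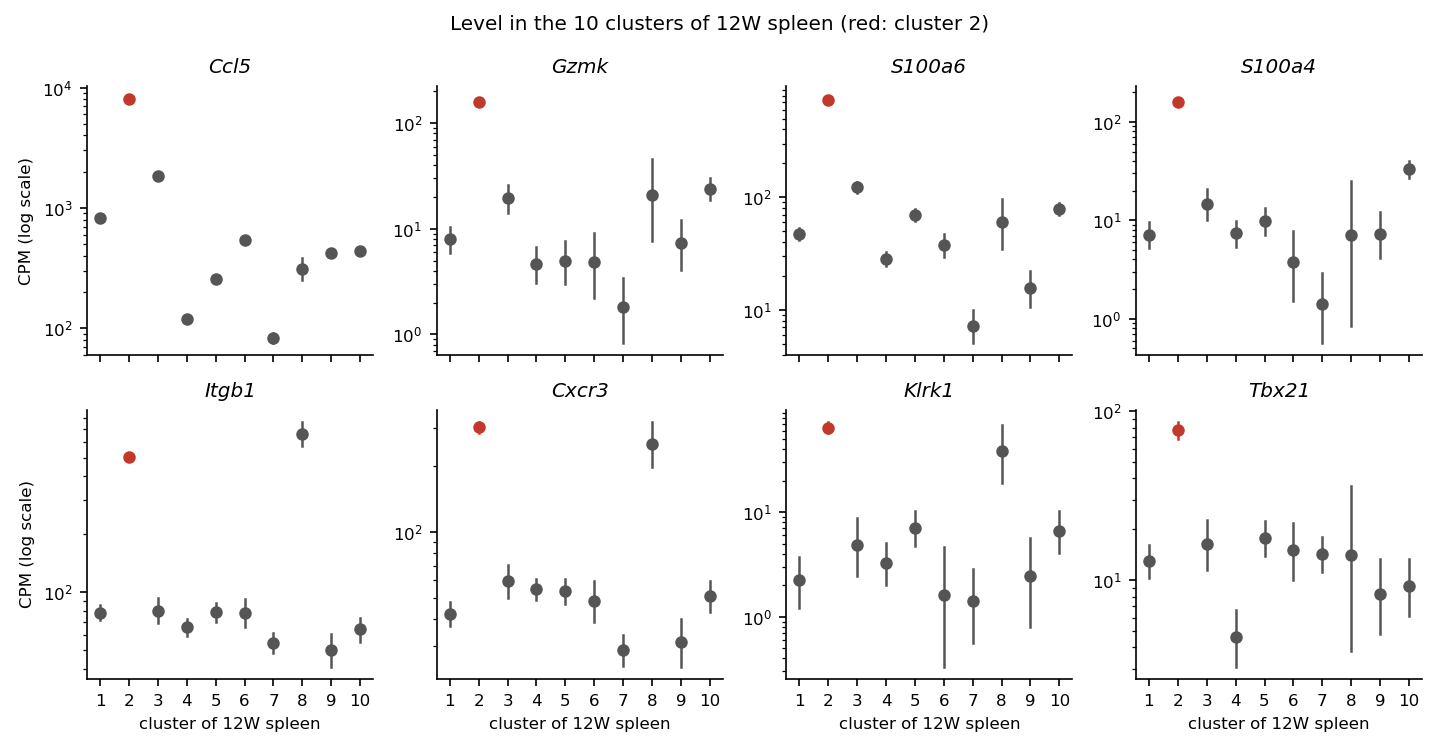
Levels of the 7 marker genes and *Tbx21* (y axis, CPM on a log scale) in each of the 10 clusters of 12W spleen (x axis), with exact 95% counting limits as vertical lines and cluster 2 in red. Cluster 2 stands apart from all others in *Ccl5*, *Gzmk*, *S100a6*, *S100a4* and *Tbx21*, whereas cluster 8 lies beside it in *Itgb1*, *Cxcr3* and *Klrk1*.

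The upstream sequences of some leading genes are shown because T-box and Runx proteins are known regulators of effector genes. Of the 20 genes with the highest ratio in cluster 2, 18 had a promoter entry in RefSeq (GRCm38.p6), and the 250 bases before each transcript start were searched on both strands. The T-box core GGTGTGA lay in 3.33% of 32851 promoters and, among these genes, in *Gzmk*. The KLF core GGGTGTG lay in 6.93% of promoters and in *Gzmk* and *Il18r1*, and in *Gzmk* it overlaps the T-box core, so the capitals mark both. The Runx core TGTGGTT lay in 4.4% of promoters and in *S100a6*, *Klrk1* and *Gzma*. These shares count promoter windows, whereas a gene was named if any of its windows matched. *Il18r1* has more than 1 window and also had windows without a match, so shares and genes are not on the same unit. Sequences run 5′ to 3′ on the strand of the gene, with the core in capitals. *Gzmk* lies on the minus strand (chr13:113180966-113181215), *S100a6* on the plus strand (chr3:90612644-90612893) and *Klrk1* on the minus strand (chr6:129623865-129624114). The *Gzmk* window precedes a RefSeq transcript start that lies inside the longer span given for the gene above, which comes from another annotation.
Gzmk: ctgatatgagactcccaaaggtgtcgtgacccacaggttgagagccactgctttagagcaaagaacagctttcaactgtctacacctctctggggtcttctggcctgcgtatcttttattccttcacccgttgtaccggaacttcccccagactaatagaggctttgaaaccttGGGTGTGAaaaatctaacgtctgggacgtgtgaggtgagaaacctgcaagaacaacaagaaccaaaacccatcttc
S100a6: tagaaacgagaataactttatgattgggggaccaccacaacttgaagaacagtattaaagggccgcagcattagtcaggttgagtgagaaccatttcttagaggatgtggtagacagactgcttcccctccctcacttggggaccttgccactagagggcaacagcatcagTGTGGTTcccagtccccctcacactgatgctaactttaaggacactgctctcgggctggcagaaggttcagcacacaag
Klrk1: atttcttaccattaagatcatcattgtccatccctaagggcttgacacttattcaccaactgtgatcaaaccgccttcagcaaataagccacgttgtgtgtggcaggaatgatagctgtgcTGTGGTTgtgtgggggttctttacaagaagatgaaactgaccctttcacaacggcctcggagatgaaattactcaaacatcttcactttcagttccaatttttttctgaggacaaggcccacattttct
These matches describe the letters of the windows, and no binding was measured here.

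Over all genes, 166 of 8713 (1.91%) were at least 2-fold higher in cluster 2 than in the other cells and 407 (4.67%) at least 2-fold lower. The median log2 ratio of all compared genes was -0.05. With no filter, the background of the list counts, 471 of 16110 genes (2.92%) were higher and 678 (4.21%) lower. Cluster 2 was the highest of the 10 clusters for 360 genes (4.13%), for 56 of them beyond the counting limits of every other cluster. For 18 genes, named here after their values were seen, it was at least 2-fold above the next cluster, and these were *Gzmk*, *S100a6*, *S100a4*, *Serpina3g*, *Ccl5*, *Tbx21*, *Casp1*, *Gna15*, *Plscr1*, *Fasl*, *Klrc1*, *Il18r1*, *Oas1a*, *Nkg7*, *Cmpk2*, *AW112010*, *Ass1* and *Zbtb32*. *Gzmk* led them, 6.67-fold above cluster 10.

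**Figure D2:**
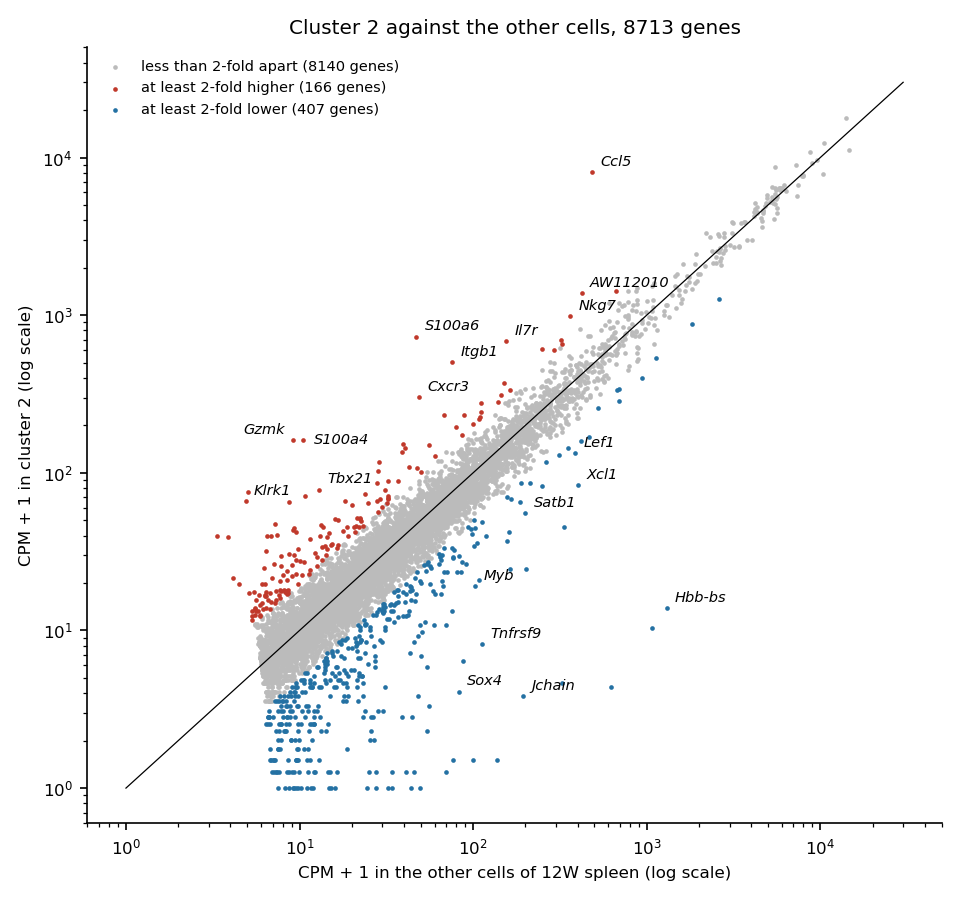
Each of the 8713 compared genes by its level in the other cells of 12W spleen (x axis) and in cluster 2 (y axis), both as CPM + 1 on log scales. The 166 genes at least 2-fold higher are red, with *Ccl5* far above the diagonal, and the 407 at least 2-fold lower are blue.

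Genes of the killing machinery were higher in cluster 2. Of the 14 genes of the cytotoxic granule list, 8 were at least 2-fold higher and none 2-fold lower, and the median log2 ratio was 1.28. Of the 13 with at least 5 CPM, 7 were higher. *Fasl*, the gene of Fas ligand, was at 38.2 CPM (32.3 to 44.9) against 2.88 in the other cells, a 13.2-fold difference (10.1 to 17.4). *Gzma* (granzyme A) stood at 152 CPM against 38.7, and the next highest cluster was the cycling cluster 10 at 104. *Gzmm* (granzyme M) was at 20.6 against 2.37.

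*Nkg7*, a granule membrane protein, was at 986 CPM (955 to 1018) against 360, a 2.73-fold difference (2.64 to 2.84). *Prf1*, the gene of perforin, was at 87.7 against 35.7, although cluster 8 held 80.8. *Gzmb* (granzyme B) was not highest in cluster 2, being at 24.5 CPM (19.8 to 30.0) there, 31.5 in cluster 7 and between 0.795 and 14.0 in the other 8. *Serpina3g*, a protease inhibitor, was at 75.1 CPM (66.7 to 84.2) against 4.02, an 18.7-fold difference (15.1 to 23.2). Granule genes of the secretory pathway were closer, with *Srgn* (serglycin) 1.59-fold and *Lamp1* 1.11-fold higher.

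Among secreted factors, the chemokines split between clusters. Beside *Ccl5*, *Cxcl10* was at 14.4 CPM against 1.30. *Xcl1* was lower than in the pooled other cells, at 82.8 against 401, and *Ccl4* was at 81.8 against 90.0. Both were highest in cluster 7, at 2088 and 490 CPM. Most single clusters lay below cluster 2 for both genes. The median of the other clusters was 66.4 for *Xcl1* and 10.35 for *Ccl4*. Beside cluster 7, clusters 9 (314) and 8 (140) also held more *Xcl1*, and no other cluster held more *Ccl4*. *Ifng*, the gene of interferon gamma, stood at 39.2 CPM (33.2 to 46.0) against 6.38, a 6.14-fold difference (4.94 to 7.63). The interval of *Ifng* in cluster 8, 19.3 to 69.1, took in the level of cluster 2. Of 9 listed effector cytokine genes that were measured, 3 were at least 2-fold higher, namely *Ifng*, *Tnf* (31.7 against 13.4) and *Il2* (3.87 against 0.324). *Il10* was not listed in the table.

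Several receptors of the natural killer (NK) type were higher, most of them at low levels. Of 13 NK receptor genes measured, 9 were at least 2-fold higher, with a median log2 ratio of 2.02 that became 0.51 with a pseudocount of 10 CPM. Only 4 of the 13 had at least 5 CPM over the library, and 2 of those, *Klrk1* and *Klrc1*, were higher. *Klrc1*, which encodes the inhibitory receptor NKG2A, was at 64.0 CPM (56.3 to 72.5) against 7.68, an 8.33-fold difference (6.95 to 10.0). *Klrd1*, the partner chain of NKG2A, was at 144 against 146. *Ncr1*, the NK cell receptor NKp46, was at 25.3 CPM (20.5 to 30.8) in cluster 2 and 14.0 (3.83 to 36.0) in cluster 8, and at 2.22 or less in each of the other 8 clusters.

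All 5 genes of a list of NK cell markers were at least 2-fold higher, none of them with 5 CPM over the library. *Klrb1c* and *Klra9* are in both lists. The summed level of the NK cell markers was 70.7 CPM in cluster 2 against 2.15 to 35.1 in single other clusters. T cell genes were present at the same time. The 6 genes of the CD3 and CD8 chains and *Trac* summed to 5556 CPM in cluster 2 and 4866 in the other cells, and none differed 2-fold. *Cd8a* was at 614 CPM (590 to 640) against 588. *Fcer1g* and *Tyrobp*, signalling adaptors of NK and myeloid cells, were at 64.8 and 38.7 CPM, below the 92.3 and 95.9 of cluster 3. The cells had been sorted as CD8+, and whether NK cells contributed to the NK receptor genes was not tested.

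Transcription factors differed in both directions. *Tbx21*, the gene of T-bet, was at 77.2 CPM (68.7 to 86.4) in cluster 2, whereas the other clusters ran from 4.62 through a median of 14.0 to 17.7. *Eomes* went the other way, at 41.5 CPM (35.4 to 48.5) against 83.9 in the other cells, and was highest in cluster 7 at 177. Of 12 effector transcription factors, 5 were at least 2-fold higher: *Tbx21*, *Maf* (17.3 against 1.98), *Rora* (38.7 against 5.83), *Prdm1*, which encodes Blimp-1 (12.3-fold, 6.82 to 22.9), and *Bhlhe40* (20.4 against 3.14). Among the 9 with at least 5 CPM, 3 were higher. *Id2* and *Runx3* were 1.41-fold and 1.52-fold higher.

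The genes of naive and memory cells were mostly lower, with exceptions. Of 16 listed genes, 5 were at least 2-fold lower and 1 at least 2-fold higher, and the median log2 ratio was -0.68. *Lef1* was at 132 CPM (121 to 144), with the other clusters between 95.7 and 776 around a median of 430. *Satb1* (54.7) and *Bach2* (14.2) were at their lowest in cluster 2 of all 10 clusters. Neither lay below the counting limits of every other cluster. Cluster 7 (64.0) was next lowest for *Satb1* and cluster 10 (19.6) for *Bach2*. *Myb* was at 18.1 CPM against 101, and *Sox4*, a transcription factor in none of the lists, was at 3.10 (1.60 to 5.41) against 81.5. *Tcf7*, the gene of TCF-1, differed less, at 175 against 222.

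The fold interval lay above 1 for 4 of the 16 genes. The largest of these exceptions were *Il7r*, the 1 gene past 2-fold, and *Klf2*, which was 1.74-fold higher. *Il7r*, the interleukin 7 receptor, was at 684 CPM (659 to 711) in cluster 2 and at 13.2 to 607 in the others, where cluster 8 (520 to 705) met its interval. *Klf2*, which keeps T cells in circulation, was at 1201 CPM (1167 to 1236), second to the 1405 of cluster 3. *S1pr1*, the egress receptor, was at 157 against 134, and *Ccr7*, the lymph node homing receptor, at 179 against 325. Cluster 2 thus held more of the interleukin 7 receptor and less of the naive factors *Lef1*, *Satb1* and *Bach2* than the other cells.

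Other cytokine receptors were higher too, with 7 of 16 at least 2-fold higher and 1, *Il4ra*, lower (25.3 against 53.0). Among the 11 with at least 5 CPM, 4 were higher. *Il18r1* and *Il18rap*, both chains of the interleukin 18 receptor, were at 70.7 (62.6 to 79.6) and 22.2 CPM (17.8 to 27.4) against 9.69 and 2.82. *Il15ra* and *Il2rb*, used by interleukin 15, were at 11.1 and 335 against 2.98 and 162. *Il2rg*, the common gamma chain that pairs with *Il2rb* and *Il7r*, was at 735 against 626.

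Genes of adhesion and movement were led by *Itgb1*. Its partner *Itga4*, with which it forms VLA-4, was at 371 CPM (352 to 390) against 150, a 2.47-fold difference (2.32 to 2.62), though cluster 8 held 1460. The other 12 integrin genes did not reach 2-fold with the added 1 CPM. Without it *Itga1*, with 4 UMIs in cluster 2, was 15.9-fold (2.28 to 176) and *Itga2* 2.34-fold (1.03 to 4.85) higher. Of the S100, annexin and galectin list, 6 of 14 were at least 2-fold higher and 1, *Anxa1* with 1 UMI (ratio 0.108, 0.00269 to 0.619), lower, with a median log2 ratio of 0.88. *Anxa1* was at 31.9 CPM in cluster 3 and near 0 elsewhere, and without clusters 3, 8 and 10 its log2 ratio turned from -1.43 to 0.22. Beside *S100a4* and *S100a6* these were *Lgals3* (galectin 3, 43.6 against 8.29), *Ahnak* (233 against 66.8), *Crip1* (608 against 249) and *S100a11* (693 against 319). *Vim*, the gene of vimentin, was at 570 against 488.

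Of 12 chemokine receptor genes, 5 were at least 2-fold higher, among them *Cxcr3* and *Ccr2* (11.9 against 1.23), and 1, *Ccr9*, was lower. Of the 7 with at least 5 CPM, *Cxcr3* alone was higher. *Ccr9*, the gut homing receptor, was at 9.80 CPM (6.94 to 13.5), below the 31.9 to 204 of every other cluster. *Cxcr6*, a receptor of tissue-resident cells, was at 137 against 83.4.

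Early response genes of the T cell receptor were mostly low. Of 8 listed, 5 were at least 2-fold lower and none higher, with a median log2 ratio of -1.18. *Egr1* was at 19.6 CPM (15.4 to 24.5), below the 38.8 to 95.7 of all 9 other clusters. *Nr4a1*, which encodes Nur77, was at 12.4 (9.13 to 16.4) against 74.3 in the other cells, and was lower still in cluster 4 at 5.12. *Egr2* was at 3.35 against 17.9, and *Tnfrsf9*, the activation receptor 4-1BB, at 7.22 against 111, with 523 in cluster 7. *Bcl2l11*, the gene of the pro-death protein BIM, was at 14.2 CPM (10.7 to 18.5) against 35.8 and at its lowest of the 10 clusters. It did not lie below the counting limits of every other cluster.

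Inhibitory genes differed among themselves. *Pdcd1*, the gene of PD-1 on which the cells were sorted, was at 42.8 CPM (36.6 to 49.9) against 35.8, the fifth of 10 clusters. *Lag3* was at 84.9 CPM (76.0 to 94.6) against 27.1, a 3.13-fold difference (2.75 to 3.56), with cluster 8 at 59.7. Of the 11 inhibitory and exhaustion genes, 4 were at least 2-fold higher (*Lag3*, *Entpd1*, *Tox2* and *Havcr2*, the last pair at 2.32 CPM each) and none lower. Of the 7 with at least 5 CPM, 1, *Lag3*, was higher. *Tigit* was at 30.2 against 15.2, *Ctla4* at 53.7 against 29.9 and *Tox* at 65.0 against 85.8.

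Genes induced by interferon were moderately higher, with 3 of 9 at least 2-fold higher and a median log2 ratio of 0.83. *Ifit3* was at 72.8 CPM (64.5 to 81.8), with cluster 4 next at 47.0. *Ifit1* was at 50.8 against 20.4 and *Isg15* at 127 against 58.9. *Ly6a*, which encodes Sca-1 and is also induced by interferon, was at 1420 CPM (1383 to 1458) against 664.

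Of the remaining lists, 3 of 12 activation genes were at least 2-fold higher, among them *Cd44* (65.5 CPM against 27.1), the antigen used in the sort, and 1 was lower. Of 7 tissue residency genes 2 were higher, led by *Rgs1*, a regulator of G protein signalling, at 117 CPM against 27.7 and at 200.1 in cluster 8. Among 7 survival genes *Bcl2l11* was the 1 past 2-fold. Of 8 myeloid genes, 2 were higher, *Fcer1g* and *Tyrobp*, and 1 lower.

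**Figure D3:**
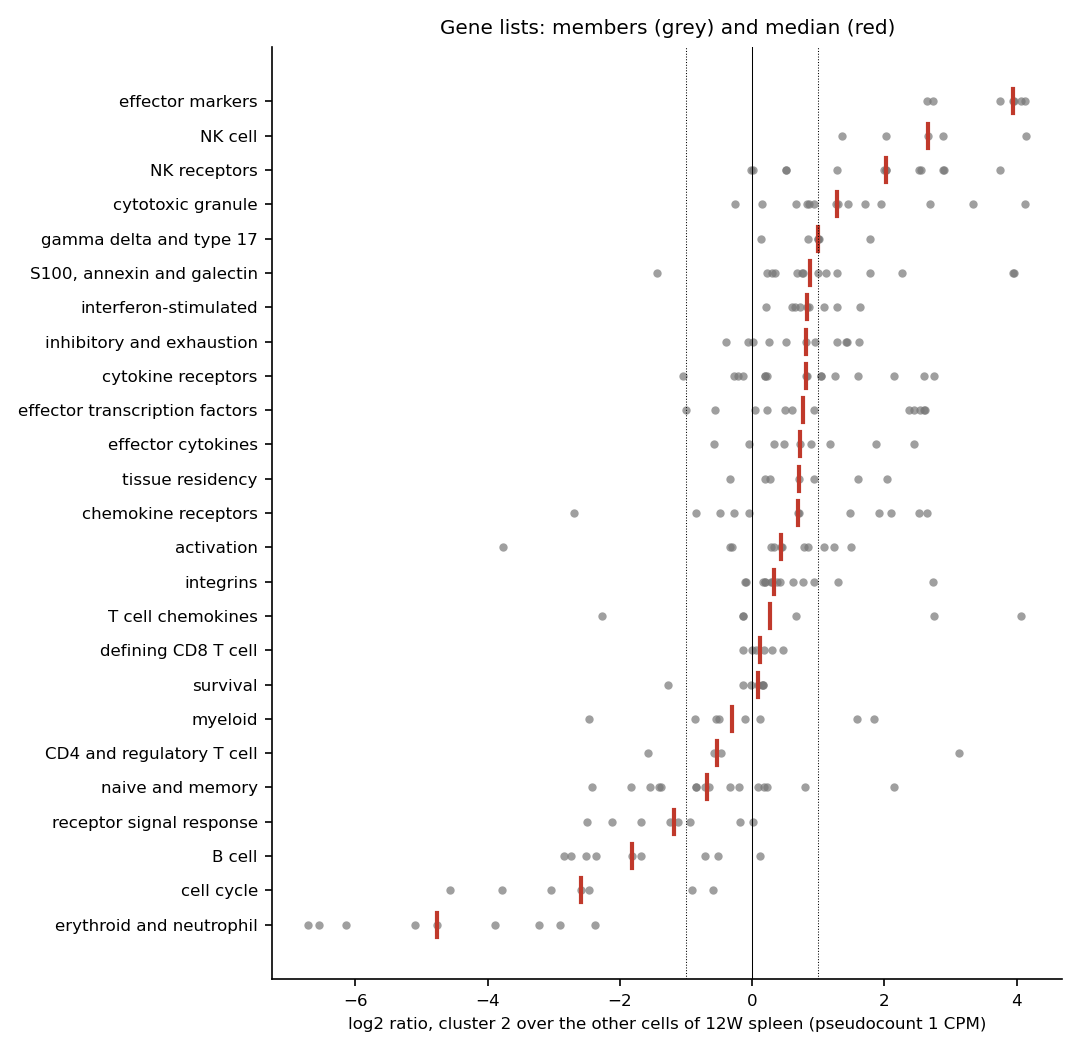
Log2 ratio of cluster 2 over the other cells of 12W spleen (x axis, pseudocount 1 CPM) for the members of 25 gene lists (grey points), with each list's median in red and dotted lines at a 2-fold difference. The effector marker, NK and cytotoxic granule lists lie highest, and the cell cycle and erythroid and neutrophil lists lowest. The effector markers were chosen with earlier results of these data known, so their place is partly fixed by that choice.

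The lowest genes were those of other clusters. The haemoglobin gene *Hba-a1* was at 9.29 CPM against 1078, and cluster 3 held 14710 CPM of it. Of 7 cell cycle genes, 5 were at least 2-fold lower, and cluster 10 held 6395 CPM of the list against 374 in cluster 2. Without clusters 3, 8 and 10 on the other side, the median log2 ratio of the cell cycle list went from -2.59 to 0.017 and that of the B cell list from -1.81 to 0.28. Of the 15 genes with the lowest ratios, 7 remained at least 2-fold lower on that comparison (*Birc5*, *Sox4*, *Ube2c*, *Tnfrsf9*, *Stmn1*, *Ccr9* and *Nr4a1*) and 5 turned direction, while all 20 with the highest ratios remained at least 2-fold higher.

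Genes of gamma delta T cells were at low but raised levels. The 6 listed genes measured summed to 70.7 CPM in cluster 2, 32.0 in the other cells and 156 in cluster 3. *Trdc*, the delta constant gene, was at 45.1 CPM (38.7 to 52.4) in cluster 2 and 126 in cluster 3. Of 4 listed CD4 and regulatory T cell genes, 1 was at least 2-fold higher and 1 at least 2-fold lower. Their median log2 ratio was -0.52, and they summed to 58.05 CPM in cluster 2 and 123 in the other cells. The higher gene was *Cd40lg*, a ligand best known from helper T cells. It was 15.9-fold higher than in the other cells, all other clusters being at 3.51 CPM or less. *Cd4* had 0 UMIs, which allows up to 0.774 CPM. Without clusters 3, 8 and 10 on the other side, the log2 ratios of *Ikzf2* and *Foxp3* were -1.57 and -0.69. The part of other T cells in these levels was not tested.

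T cell receptor V segments were spread more evenly in cluster 2. The effective number of Trbv segments (the inverse of the summed squared shares) was 9.19 from 6975 UMIs, against 7.12 to 8.26 in the other clusters, and that of Trav segments 34.8 against 25.9 to 33.3. Trbv13-2 (18.9% of Trbv UMIs), Trbv13-1 (16.1%) and Trbv1 (13.3%) were the most used. Trbv13-1 was below its range in the other clusters, 18.1 to 24.1%.

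Among Trbv segments with at least 1% in cluster 2, the largest gains over the other cells were in Trbv17 (2.15% against 0.877%), Trbv19 (2.29 times its share there) and Trbv20 (7.43% against 3.94%). Among Trav segments, Trav3-3 (7.43%), Trav13-1 (6.21%) and Trav8d-2 (4.41%) were the most used. Among those with at least 1%, Trav5-1 had the highest share relative to the other cells, at 2.86% (2.34 to 3.46%) against 0.284 to 1.14% in the other clusters. These are UMIs per segment and not clones, so a few cells with much receptor RNA can weigh heavily.

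**Figure D4:**
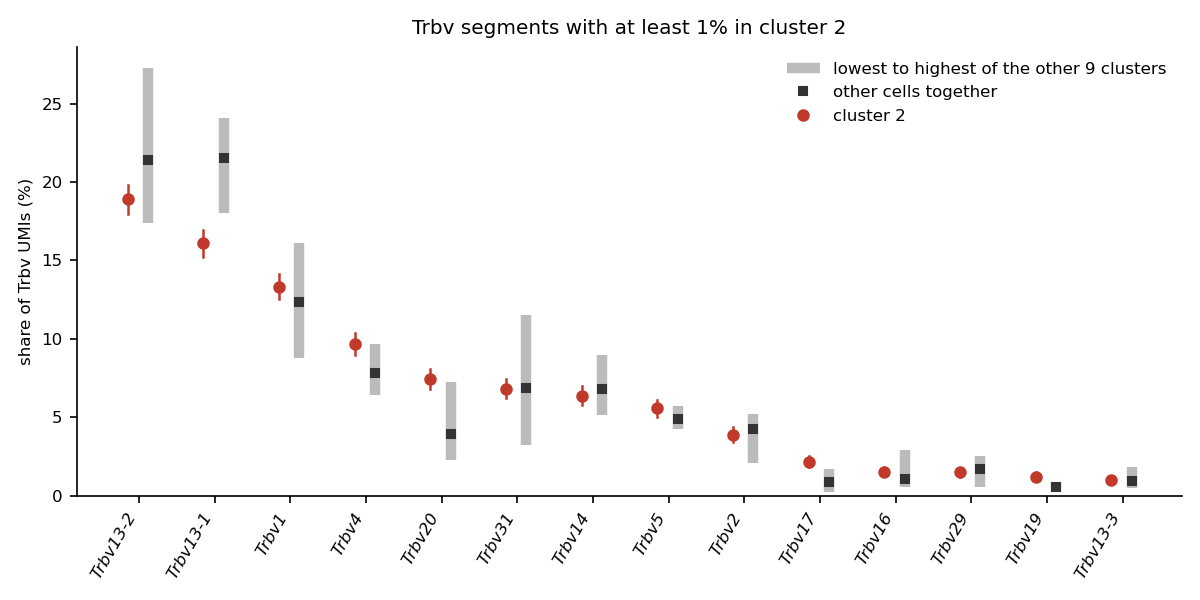
Share of Trbv UMIs (y axis, %) of the 14 segments with at least 1% in cluster 2 (red points with exact binomial 95% limits), beside the other cells together (black squares) and the lowest to highest value of the other 9 clusters (grey bars). Trbv13-1 lies below the grey bar, and Trbv17, Trbv19 and, narrowly, Trbv20 above it.

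To place cluster 2 among the later cells, it was set beside the clusters of the other libraries with the highest median level of the 7 markers. Taking the highest cluster of each library, these were cluster 9 of 28W spleen, with 256 cells and only 1706 UMIs per cell, and cluster 1 of 28W kidney, with 900 cells. Cluster 2 of 28W spleen (1027 cells, 4621 UMIs per cell), next in that library by the same measure, was added after its values were seen, because its gene profile against its own library was most like that of cluster 2 of 12W spleen (Pearson's r 0.77 and Spearman's rho 0.60 over 8254 genes, a description across genes). By that measure clusters 4 (r 0.72, rho 0.59), 5 (r 0.68, rho 0.51) and 1 (r 0.62, rho 0.40) of 28W spleen followed. Those clusters were not set beside cluster 2 of 12W spleen. Cluster 9 of 28W spleen (r 0.39, rho 0.25) and cluster 1 of kidney (r 0.34, rho -0.017) were less like it. Kidney clusters 3 (r 0.60, rho 0.39) and 6 (r 0.60, rho 0.41) were more like it and were not set beside it. Levels given below for kidney are those of cluster 1 alone. The 3 tables were normalised separately, so levels across libraries rest on the rescaling to CPM. Of the cell barcodes of cluster 2 of 12W spleen, 9 also occur in the kidney library and 5 in 28W spleen.

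Cluster 2 of 12W spleen was close to cluster 2 of 28W spleen, with 75 of 8718 genes (0.86%) at least 2-fold higher at 12W and 56 (0.642%) at least 2-fold lower. Of 161 genes at least 2-fold higher in cluster 2 of 12W spleen than in its own library, 28 (17.4%) were also higher in cluster 2 of 28W spleen than in that library, where they made up 54.9% of 51 genes. That background was 0.618% of genes. Cluster 2 of 28W spleen had been added for its like profile, so these counts and the overlap are partly fixed by that choice. Against cluster 9 of 28W spleen, 663 genes (7.6%) were higher and 270 (3.1%) lower, or 90 and 45 with a pseudocount of 10 CPM. That cluster held 436825 UMIs, so 3 UMIs were 6.87 CPM there, and its counts are no measure of distance beside those of cluster 2. Against cluster 1 of 28W kidney 472 of 9002 (5.24%) were higher and 418 (4.64%) lower.

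The clusters set beside it were chosen on the 7 markers, so higher levels of *Gzmk*, *Ccl5* and the other markers there are partly fixed by that choice and are given as a description. Of the 14 cytotoxic granule genes, 2 were at least 2-fold lower at 12W than in cluster 2 of 28W spleen (median log2 ratio -0.13), 1 than in cluster 9 (-0.14) and 6 than in cluster 1 of kidney (-0.86). *Gzma* was at 152 CPM against 137, 119 and 266 in clusters 2 and 9 of 28W spleen and cluster 1 of kidney. *Gzmk* was at 160 CPM in cluster 2 of 12W spleen, 360 (343 to 377) in cluster 2 and 401 (344 to 465) in cluster 9 of 28W spleen, and 873 (848 to 899) in cluster 1 of 28W kidney. *Gzmb* was at 24.5 CPM against 96.3, 41.2 and 696 in the same order. The interval of *Gzmb* in cluster 9, 24.4 to 65.1, met that at 12W, while cluster 1 of kidney was 28.4-fold higher (23.2 to 35.2).

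*Ifng* was at 39.2 CPM against 116, 64.1 and 92.4, and *Ccl4*, a chemokine of activated T cells, at 81.8 against 322, 316 and 414. *Nkg7* was at 986 against 1625, 1646 and 2841. *Tbx21* differed little from cluster 2 of 28W spleen, at 77.2 against 76.3, and stood at 38.9 in cluster 9 and 98.1 in kidney. The immediate-early gene *Fos* was at 91.6 CPM at 12W, 449 in cluster 2 and 540 in cluster 9 of 28W spleen.

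Genes of recirculating and memory cells were lowest in the kidney cluster. *Il7r* was at 684 CPM at 12W, 454 (435 to 474) and 401 (344 to 465) in clusters 2 and 9 of 28W spleen, and 42.7 (37.2 to 48.7) in cluster 1 of kidney. *Klf2* was at 1201 CPM at 12W and 87.7 (79.8 to 96.2) in kidney, but was higher in 28W spleen, at 1377 and 2740. *Ccr7* was at 179 CPM against 92.9, 153 and 15.3. Of the 16 naive and memory genes, 14 were at least 2-fold higher in cluster 2 of 12W spleen than in cluster 1 of kidney (median log2 ratio 2.24), and none against cluster 2 of 28W spleen (median 0.39).

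Against cluster 1 of kidney, *Dtx1*, which encodes the E3 ligase Deltex1, was the gene named with the largest ratio, at 232 CPM against 9.79 (7.26 to 12.9). *Dtx1* and *Il7r* were also at least 2-fold lower in that kidney cluster than in the other cells of its library. The stress genes *Hspa1a* and *Hspa1b* were lower at 12W, at 9.55 and 6.71 CPM against 515 and 199.8 in kidney. Kidney cells had been released with collagenase and no such digestion is given for the spleen samples, so organ, age and preparation cannot be told apart. *Cxcr6* (137 against 826) and *Ccr2* (11.9 against 238) were likewise lower at 12W. *Pdcd1* was at 42.8 CPM at 12W and 151 in kidney, and *Tigit* at 30.2 and 104.

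The NK markers went the other way against the kidney cluster. *Ncr1* was at 25.3 CPM (20.5 to 30.8) in cluster 2 of 12W spleen. It was at 18.8 and 20.6 in clusters 2 and 9 of 28W spleen and at 3.33 (1.94 to 5.33) in cluster 1 of kidney. All 5 NK cell genes were at least 2-fold higher at 12W than in that kidney cluster. Against cluster 9 of 28W spleen 3 were, and against cluster 2 none. None had 5 CPM over the 12W library, and no share over all genes without a filter was taken here. *Trdc* was at 45.1 CPM against 6.95, 34.3 and 2.54.

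**Figure D5:**
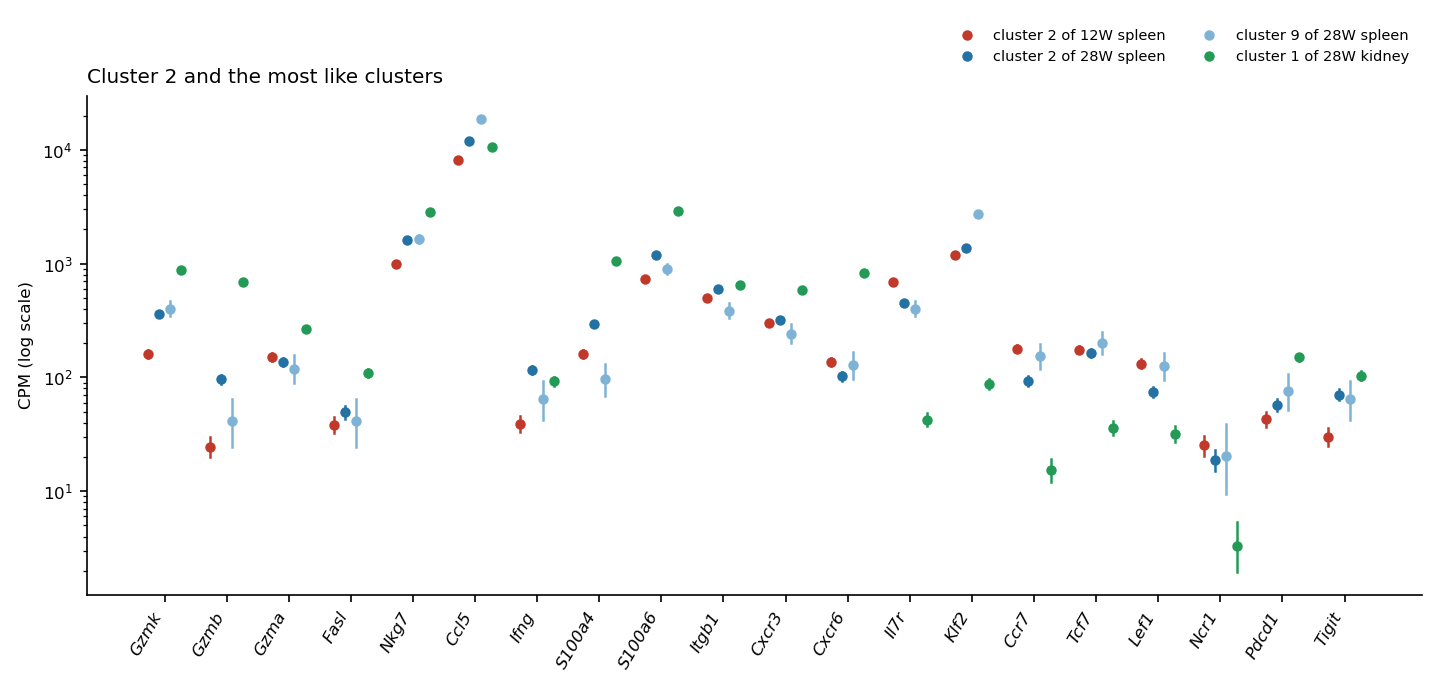
Levels of 20 genes (y axis, CPM on a log scale, with exact 95% counting limits) in cluster 2 of 12W spleen (red), clusters 2 and 9 of 28W spleen (dark and light blue) and cluster 1 of 28W kidney (green). The granzyme and S100 genes are highest in the kidney cluster, and *Il7r*, *Klf2*, *Ccr7*, *Tcf7*, *Lef1* and *Ncr1* lowest there.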

How the data were processed

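Single-cell RNA-seq libraries (10x Genomics 5′ v2) of sorted PD-1+CD44+CD8+ T cells were quantified and clustered by the authors within each library. Processing notes name Cell Ranger 2.1.1 and R 3.6.1 with GRCm38, the study's methods Cell Ranger vdj. Cell filters, annotation release and doublet treatment are not given in the sources used here, and no doublets were called here. The authors deposited the cluster of each cell barcode and, for each gene and cluster, a mean count, a signal scaled so that a column sums to the library's median UMIs per cell. Their fold changes and p-values were not used. Each column held whole multiples of 1 step, and division by it gave whole UMIs (within 0.001 for all values), which is why CPM could be computed. The library totals were 34742303 UMIs (12W spleen), 32023473 (28W spleen) and 29937384 (28W kidney). Dividing by step was run on simulated columns of whole counts times 1 step. Recovery there follows from how they were built and is no test of the deposited values. For 28W spleen, titles and the age entry (12 weeks) conflict, and the titles were used.

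Fold differences were printed without the pseudocount, with exact conditional binomial limits of the UMIs of both sides, and levels with exact Poisson limits. For a gene with 0 UMIs the limit is 3 counts. Genes were named by rule: the 20 highest and 15 lowest log2 ratios among genes with at least 50 CPM on either side, 10 each way against each like cluster, the 3 most used and 3 most raised V segments and the members of 25 gene lists. Members and lists were chosen with earlier results of these data known. Some genes that met these rules are not reported here. Coordinates are those of GENCODE M21, which held 16086 of the 16110 genes. Python 3.11.15, pandas 2.3.3 and scipy 1.17.1 were used. Alternatives were another pseudocount, filters, scalings and other sides.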

Additional observations from a re-analysis of the deposited data

How the results depend on the processing

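No paired analysis was possible because the 4 labelled samples of each group, which may be lanes of 1 library, are pooled in 1 table, and for the same reason nothing could be left out as a replicate. The count of higher genes (166) was 72 with a pseudocount of 10 CPM, 471 of 16110 genes with no filter on low values, 64 of 5307 with at least 20 CPM, and 99 where the interval of the fold had to lie wholly past 2-fold, a choice added after the data were seen. The count of lower genes (407) was 152, 678, 184 and 247 in the same order. Both stayed within 1.5 times under the other scalings and other sides. Against cluster 9 of 28W spleen, the 663 higher and 270 lower genes were 90 and 45 with a pseudocount of 10 CPM, 1583 and 819 with no filter, 156 and 73 with at least 20 CPM, and 75 and 56 with cluster 2 of 28W spleen in its place. The median log2 ratio of the cytotoxic granule list (1.28) was 1.07 with the larger pseudocount. That of the inhibitory and exhaustion list (0.82) was 0.25 with it and 0.33 with the other clusters weighted alike. Of 25 list medians under 5 alternatives, 4 lists turned sign once. Without clusters 3, 8 and 10 these were the cell cycle (0.017), B cell (0.28) and myeloid (0.50) lists, and with clusters weighted alike the survival list (-0.038), whose main value was 0.09. Scaling by the median gene ratio shifted all values of the other side by -0.06 on the log2 scale. Because low-level genes change their call with the pseudocount and the filter, the counts of genes past 2-fold are tied to these settings. Cluster 8, with 284846 UMIs in all, limits the precision of what is said about it.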
